A study of Homo sapiens with 8 samples.

Results

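The replication-dependent histone genes encode the bulk of the histones that package newly made DNA, and lie in clusters on a few chromosomes. They were taken here as the protein-coding rows of the deposited expression table whose symbol starts with HIST1H, HIST2H, HIST3H or HIST4H in the Gencode release 31 naming. This rule gave 71 genes of the 60754 rows of the table. They comprise 6 H1 genes, 17 H2A genes, 18 H2B genes, 15 H3 genes and 15 H4 genes. HIST1 lies on chromosome 6 and holds 55 of them, HIST2 and HIST3 lie on chromosome 1 and hold 12 and 3, and HIST4 on chromosome 12 holds 1. The rule used names and no measured value, but the choice was made with earlier results of these data known.

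RNA-seq was analyzed for 8 libraries of SEM cells, an established human line grown from a B-cell leukemia with a *KMT2A* rearrangement. All carried a miniAID-mClover3 tag on both alleles of *CTCF* and a lentiviral OsTIR1(F74G)-P2A-Zeocin resistance cassette, so the parental cells differ from unmodified SEM cells. The clones C17.2 and C3.2 each derived from a single cell and each had 2 libraries of parental cells, which were untreated, and 2 of resistant cells. Resistant cells had been kept for 36 days with the auxin analog 5-Ph-IAA at 1 μM together with Zeocin at 100 μg/ml, after which both were withdrawn for 48 h. In the study, resistant C17.2 cells gained a nonsense change in *CTCF* ahead of the tag and resistant C3.2 cells a missense change within the tag, so each kind of resistance is represented by 1 clone. Nothing in the labels says that the 2 libraries of a group came from separate cultures, and p-values then measure only the spread between these libraries. The library titles of each clone start with numbers from a range of their own, whose meaning the labels do not give, so a difference in level between clones and one between such sets cannot be told apart. The comparisons of the histone genes address how their RNA differed between resistant and parental cells of each clone, and whether the clones differed in this.

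Replication-dependent histone messenger RNA accumulates in S phase and is degraded at its end. Most of these genes lack introns, and their transcripts end in a short stem-loop in place of a poly(A) tail. SLBP binds the stem-loop, and the transcript is cut just after it by a complex that contains the U7 small nuclear ribonucleoprotein. NPAT, a target of cyclin E and CDK2, drives their transcription in nuclear bodies that form at the clusters. The total RNA was depleted of ribosomal RNA rather than selected for poly(A), so transcripts without a tail are kept in these libraries. H2A, H2B, H3 and H4 form the core of the nucleosome, and H1 binds the DNA that enters and leaves it.

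All 71 genes were found in Gencode release 44 on GRCh38, 69 by gene identifier and 2 by an older symbol. Each had, in its canonical transcript, a run of 16 bases that starts with GG and ends with CC. The run forms 6 base pairs (G-U pairs allowed) around a 4-base loop that starts with T, and the base just before the loop is also T. This search was loosened after 5 members had been missed by a stricter rule, without G-U pairs and with a loop that starts with TT, which 66 of the 71 met. The strict rule was met by 0.105% of the 19975 other protein-coding genes and the loose one by 2.39%. The windows below show how the members vary at this element. Capitals mark the stem-loop, T stands for U, and the first shown is shared by 41 members. The form printed for HIST1H4J is shared by 10 members, all of them H4 genes. Loops ending in A (10 members of 1 form) and in T are shown by HIST1H2BJ and HIST1H4I. The last 3 are the members whose loop starts with TC.

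HIST1H2AE: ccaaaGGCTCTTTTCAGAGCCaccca
HIST1H4J: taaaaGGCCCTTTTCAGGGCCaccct
HIST1H2BJ: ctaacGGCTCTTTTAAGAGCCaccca
HIST1H4I: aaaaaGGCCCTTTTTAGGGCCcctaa
HIST1H4L: tcaaaGGCCCTTCTCAGGGCCaccca
HIST1H3E: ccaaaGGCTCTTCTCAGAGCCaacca
HIST1H2BI: ccaaaGGCTCTTCTAAGAGCCaccca

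Promoter windows from 250 bases before to 50 bases after the gene start were given by RefSeq (GRCh38.p14) for 66 members, and where a member had several the one nearest its annotated start was taken. Its start lay within 104 bases of the Gencode gene start except for HIST1H2BE, whose Gencode gene begins 11702 bases further upstream. Both strands were searched for the CCAAT box, for the TATA box written as TATAAA and for the octamer ATTTGCAT, a binding sequence of the POU factor OCT1. CCAAT occurred in 56 of the 66, against 35.7% of 27305 promoters of the same length, 1 per gene, and in 3 of 13 H4 genes against all of the other types. TATAAA occurred in 45 of the 66, against 11.95% of all promoters. The octamer occurred in 25 of the 66, against 1.80% of all promoters, and was found in 11 of 16 H2A and 14 of 18 H2B genes and in no H1, H3 or H4 gene. A match is a description of these letters and no proof of a bound site. The 150 bases before the start are printed for the H3 and H2B gene with the largest falls in C17.2, for the most abundant H4 gene, and for the H4 gene that rose most. Capitals mark the 3 motifs on either strand.

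HIST1H3H, chr6:27809901-27810050, forward strand: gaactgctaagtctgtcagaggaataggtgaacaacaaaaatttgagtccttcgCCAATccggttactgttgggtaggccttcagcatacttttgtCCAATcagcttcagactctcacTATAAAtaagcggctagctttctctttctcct
HIST1H2BJ, chr6:27132796-27132945, reverse strand: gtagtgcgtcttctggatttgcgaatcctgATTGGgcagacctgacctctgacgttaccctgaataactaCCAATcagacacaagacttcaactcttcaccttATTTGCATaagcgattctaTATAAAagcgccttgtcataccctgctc
HIST1H4J, chr6:27823942-27824091, forward strand: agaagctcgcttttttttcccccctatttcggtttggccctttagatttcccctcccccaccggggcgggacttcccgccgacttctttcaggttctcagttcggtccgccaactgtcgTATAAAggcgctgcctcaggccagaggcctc
HIST1H4L, chr6:27873535-27873684, reverse strand: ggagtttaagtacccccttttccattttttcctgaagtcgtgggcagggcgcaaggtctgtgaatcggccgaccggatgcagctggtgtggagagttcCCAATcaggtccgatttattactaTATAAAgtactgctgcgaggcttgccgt

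The deposited values are TPM, which are corrected for transcript length and keep no sequencing depth, so depth is unknown and counting error cannot be given. The libraries were set to a common scale by a trimmed mean of log2 ratios, with factors between 0.893 and 1.16. Genes with 1 TPM or more in any library entered the test (15614 genes), log2(scaled TPM + 1) was fitted in limma, and a gene was called at an adjusted p under 0.05. Changes below are log2 fold changes on this scale unless TPM is named, and they understate the change of genes with low TPM. Of the 71 histone genes, 62 were tested, 50 of HIST1, 11 of HIST2 and the gene of HIST4. The other 9 (HIST1H1A, HIST1H2AA, HIST1H2BA, HIST1H4G, HIST1H4K, HIST2H3PS2, HIST3H2A, HIST3H2BB and HIST3H3) reached at most 0.360 TPM in any library. Of the B-cell precursor markers, 9 of 10 were tested, with *DNTT* at no more than 0.250 TPM. Of these 4 (44.4%) fell in C17.2, where 13.9% of all tested genes were called lower. In C3.2, 4 (44.4%) fell and 1 rose, where 6.90% of all genes were called lower and 4.46% higher. With rescaling over protein-coding genes 3 fell and 3 rose in C3.2. The surrogate light chain gene *IGLL1* had a change of -2.16 (SE 0.0751, adjusted p = 2.28e-05) in C17.2 and -2.35 (SE 0.0751, adjusted p = 0.000122) in C3.2, a lower value than that of any histone gene. The B-cell receptor gene *CD79B* had -1.51 (SE 0.0739, adjusted p = 7.26e-05) and -1.03 (SE 0.0739, adjusted p = 0.00112). Both were named after their values were seen, and their part in the histone result was not tested. The 10 markers of T, myeloid, erythroid and epithelial cells summed to 2.08 to 4.32 TPM, with *CD3D* and *EPCAM* at 0 throughout. *CTCF*, the tagged gene, had a change of 0.44 (SE 0.0415, adjusted p = 0.000795) in C17.2 and 0.34 (SE 0.0415, adjusted p = 0.0068) in C3.2. The 2 libraries of a group correlated with r from 0.968 to 0.979 across all tested genes.

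Histone RNA was lower in resistant than in parental cells of C17.2, with falls in genes of all 5 types and in both HIST1 and HIST2. Summed over the 71 genes it was 35070.1 and 32468 TPM in C17.2 parental cells, 24001 and 22925 in C17.2 resistant cells, 25540.4 and 27774 in C3.2 parental cells and 25067 and 25879 in C3.2 resistant cells. Both C17.2 parental libraries lay above the other 6, and both resistant libraries lay below them. As a share of protein-coding TPM this was 8.40% and 8.26% against 5.70% and 5.29% in C17.2. In C3.2 the share was 6.81% and 7.17% in parental and 6.55% and 7.18% in resistant cells, which overlapped. After scaling, the sum was 33139 ± 372 (SD, n = 2) in parental and 20614 ± 1108 (SD, n = 2) in resistant cells of C17.2, a ratio of 0.622. In C3.2 it was 29359 ± 1088 (SD, n = 2) and 26825 ± 1573 (SD, n = 2), a ratio of 0.913. An exact two-sided permutation test of 2 libraries against 2 cannot give less than p = 0.333. These are bulk libraries, so fewer cells in S phase and less histone RNA per such cell cannot be told apart.

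**Figure D1:**
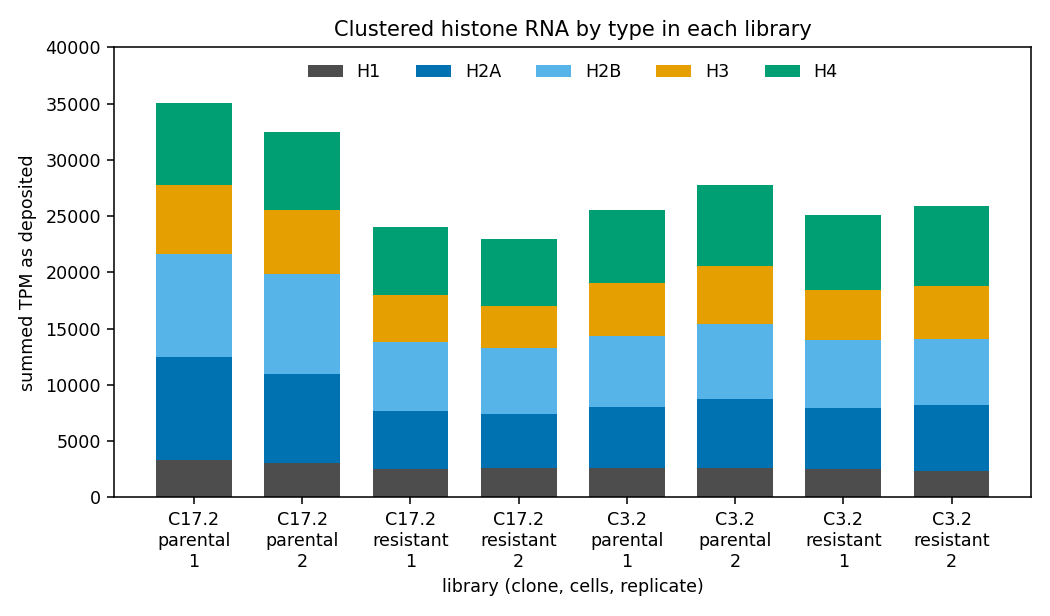
Summed TPM as deposited (vertical axis, from 0) of the 71 clustered histone genes in each of the 8 libraries (horizontal axis), with the 5 histone types stacked in colors. The 2 C17.2 parental libraries reach 35070 and 32468 TPM, and the 2 resistant libraries of that clone 24001 and 22925 TPM.

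In C17.2, 48 of the 62 tested histone genes fell, 3 rose and 11 did not pass the threshold. The 48 are 77.4% of the members, where 13.9% of all tested genes were called lower, and the 3 are 4.84%, where 13.4% of all genes were called higher. The median log2 fold change of the members was -0.69, against 0 over all genes. The number called lower was 35 to 50 when any 1 library was left out, and 38 on TPM as deposited. That scale moves the median of all genes up by 0.13 in this clone and raises the share of higher calls among all called genes from 49.1% to 75.1%. In the scaled values both C17.2 resistant libraries lay below all of the other 6 for 44 members (71.0%), against 12.5% of all genes. Both C17.2 parental libraries lay above the other 6 for 31 of the 62 members, against 15.0% of all genes. Both held for 23 members, and for 10 neither held. No share over all genes is given for these last counts.

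In C3.2, 10 members fell and 1 rose. These are 16.1% and 1.61% of the members, where 6.90% of all genes were called lower and 4.46% higher, and the members' median was -0.17. This count rested on the pooled estimate of spread. Fitted without the other clone, C3.2 had no member called, with 25 at an unadjusted p under 0.05 and 74 genes called in all. It was also 0 without either C3.2 parental library, 4 without either C17.2 parental library, and 2 to 4 under the other 3 scalings, where the median was -0.011 to -0.10. Those scalings gave 50.8% to 69.9% higher calls among all called genes, against 39.3%. Both C3.2 resistant libraries lay below the other 6 for 1 member (1.61%), against 9.25% of all genes. Both C3.2 parental libraries lay above the other 6 for 11 members (17.7%), against 8.85%.

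The difference between the clones was tested as the change in C17.2 minus that in C3.2, in which a log2 shift common to the 4 libraries of a clone cancels. It was called negative for 28 members (45.2%), against 5.00% of all genes, and positive for 1 (1.61%), against 4.92%. The median difference over the members was -0.52. The number called negative was 11 without the first C17.2 parental library, 14 without the second, 15 without the second C17.2 resistant library, and 11 and 12 without the first and second C3.2 parental library. It was 15 with no filter on low values. The medians in these cases lay between -0.43 and -0.56. Across the 62 members the changes of the clones, which share no library, correlated with r = 0.44 (Pearson) and rho = 0.43 (Spearman), where the members share the libraries and the scaling of each clone.

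**Figure D2:**
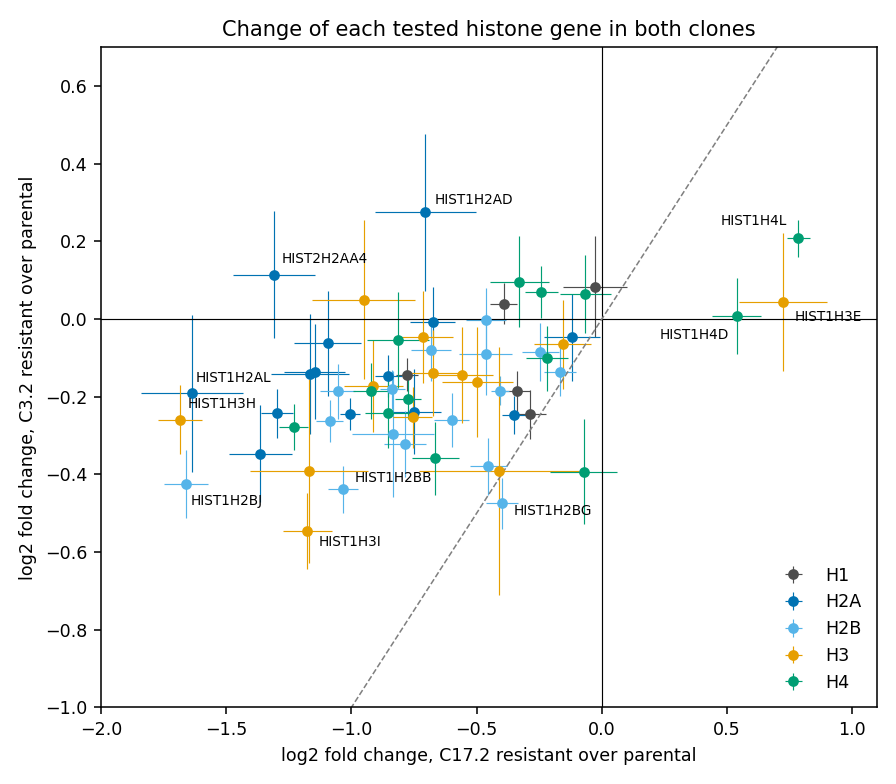
Log2 fold change of resistant over parental cells in C17.2 (horizontal axis) and C3.2 (vertical axis) for 61 of the 62 tested histone genes, colored by type, with standard errors as bars and equal change dashed. HIST2H2AA3, which is above 0 in 1 library, is left out. Most points lie left of 0 and above the dashed line, and HIST1H4L, HIST1H3E and HIST1H4D lie to the right.

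Genes of all 5 types fell in C17.2, and the H2A genes had the lowest median. Among all tested genes 13.9% were called lower in that clone and 13.4% higher. Of 15 tested H2A genes 13 fell and none rose, with a median of -1.01. Of 16 H2B genes 14 fell, with a median of -0.64, and of 13 H3 genes 10 fell and 1 rose, with a median of -0.71. Of 5 H1 genes 4 fell, with a median of -0.34. Of 13 H4 genes 7 fell and 2 rose, with a median of -0.33. Summed H2A was 9092 and 7873 TPM in C17.2 parental cells, 5164 and 4762 in C17.2 resistant cells, 5469 and 6093 in C3.2 parental cells and 5473 and 5789.7 in C3.2 resistant cells. Its share of all clustered histone TPM was 25.9% and 24.2% in C17.2 parental cells and 21.5% and 20.8% in resistant cells. Summed H4 was 7344 and 6968 TPM in C17.2 parental cells, 6027 and 5873 in C17.2 resistant cells, 6514 and 7169 in C3.2 parental cells and 6612 and 7056 in C3.2 resistant cells. The H4 share was 20.9% and 21.5% in C17.2 parental cells and 25.1% and 25.6% in resistant cells, near the 25.5% to 27.3% of the 4 C3.2 libraries. C17.2 parental cells stood apart from the other 6 libraries in both shares, with more H2A and less H4. In C3.2 the medians of the types lay between -0.22 for H2B and -0.10 for H4. There 6 of 16 H2B genes fell, where 6.90% of all tested genes were called lower. That count was 3 on TPM as deposited, 3 with rescaling over protein-coding genes and 2 with quantile normalization. The H4 median there was 0.0019 with rescaling over protein-coding genes and 0.12 with quantile normalization, which also turned that of H1 to 0.043. Differences between types were not tested.

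*HIST1H1C* had the largest fall of the H1 genes, which encode the linker histones. It was 1276 and 1170.4 TPM in C17.2 parental cells, 783 and 809.9 in C17.2 resistant cells, 797 and 809 in C3.2 parental cells and 769.9 and 753 in C3.2 resistant cells. After scaling, the C17.2 parental libraries (1215 and 1185) lay above the other 6 and the C17.2 resistant ones (698 and 701) below them, with C3.2 between 789.8 and 892. Its change was -0.78 (SE 0.0434, adjusted p = 0.000114) in C17.2 and -0.14 (SE 0.0434, adjusted p = 0.0887) in C3.2. *HIST1H1E* fell in C17.2 by 0.39 on the log2 scale, and *HIST1H1D* by 0.34, a call lost under 2 of 16 alternatives. *HIST1H1B*, whose mean level was close to that of *HIST1H1C*, was 1053 and 948 TPM in C17.2 parental cells, 895 and 939 in C17.2 resistant cells, 896 and 883 in C3.2 parental cells and 848 and 728 in C3.2 resistant cells, with a change of -0.29 (SE 0.0633, adjusted p = 0.0189) in C17.2 that missed the threshold under 7 of 16 alternatives. *HIST1H1T*, known from testis, stayed between 1.36 and 2.46 TPM in all libraries and did not pass the threshold in either clone.

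The most abundant H2A gene of the table was *HIST2H2AA4*, at 2009.7 and 1542 TPM in C17.2 parental cells, 849 and 743 in C17.2 resistant cells, 1081 and 1325 in C3.2 parental cells and 1238 and 1488 in C3.2 resistant cells. The C17.2 resistant libraries were the lowest of the 8 with and without scaling. After scaling the second C17.2 parental library (1561) lay below the second C3.2 resistant one (1606). The change was -1.31 (SE 0.163, adjusted p = 0.00229) in C17.2 and 0.11 (SE 0.163, adjusted p = 0.7) in C3.2. It shares nearly all of its sequence with *HIST2H2AA3*, which was listed at 0 except for 6.54 TPM in the second C17.2 resistant library, so the split between them is uncertain. Their sum was 749.1 to 2010 TPM and changed by -1.30 in C17.2. *HIST1H2AE* was 1491 and 1428 TPM in C17.2 parental cells, 803 and 820.4 in C17.2 resistant cells, 784 and 814 in C3.2 parental cells and 717 and 694 in C3.2 resistant cells. It had a change of -1.01 (SE 0.0416, adjusted p = 4.36e-05) in C17.2 and of -0.25 (SE 0.0416, adjusted p = 0.0175) in C3.2. The call in C3.2 was lost under 6 of 16 alternatives. After scaling the C17.2 resistant libraries (716 and 709.6) lay below the C3.2 parental ones (877 and 883). *HIST1H2AL* had the largest fall among H2A genes. It was 487 and 312 TPM in C17.2 parental cells, 160.1 and 121 in C17.2 resistant cells, 256 and 277 in C3.2 parental cells and 251 and 238 in C3.2 resistant cells, with a change of -1.64 (SE 0.203, adjusted p = 0.00222) in C17.2. The difference between clones for it, -1.45 (SE 0.287, adjusted p = 0.029), lost its call under 8 of 15 alternatives.

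*HIST1H2AI* and *HIST1H2AJ* flank *HIST1H3H* and share more than 50% of their 100-base words, so reads could be split between them. The first had a change of -0.85 and the second of -0.35 in C17.2, both past the threshold, and their summed TPM changed by -0.60. The call of *HIST1H2AJ* was lost under 2 of 16 alternatives. *HIST2H2AC* was 345 and 288 TPM in C17.2 parental cells, 150.1 and 123 in C17.2 resistant cells, 209 and 237 in C3.2 parental cells and 199.6 and 168 in C3.2 resistant cells. Its change was -1.36 (SE 0.125, adjusted p = 0.000723) in C17.2, where both resistant libraries were the lowest of the 8. *HIST2H2AB* fell in that clone by 0.68 on the log2 scale, from 293 and 235 TPM to 189 and 178 TPM. In C3.2 its change was -0.0064 (SE 0.0892, adjusted p = 0.983).

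*HIST1H2BJ* had the largest fall of the H2B genes. It was 812 and 881 TPM in C17.2 parental cells, 302 and 295 in C17.2 resistant cells, 421 and 463 in C3.2 parental cells and 335 and 354 in C3.2 resistant cells. The groups of each clone did not overlap, and the change was -1.66 (SE 0.088, adjusted p = 9.58e-05) in C17.2 and -0.42 (SE 0.088, adjusted p = 0.0308) in C3.2. The call in C3.2 was lost under 11 of 16 alternatives, and the difference between clones was -1.24 (SE 0.124, adjusted p = 0.0034). *HIST1H2BK*, the most abundant H2B gene, was 1458 and 1433 TPM in C17.2 parental cells, 908 and 900.5 in C17.2 resistant cells, 905 and 953 in C3.2 parental cells and 897 and 820.2 in C3.2 resistant cells. It fell by 0.84 on the log2 scale in C17.2, and *HIST1H2BE* by 1.05. *HIST1H2BC* fell there by 0.46, a call lost under 3 of 16 alternatives. *HIST1H2BD*, at 618 to 720.1 TPM in all libraries, had a change of -0.25 (SE 0.0749, adjusted p = 0.0547) in C17.2.

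*HIST1H2BG* was the H2B gene with the largest fall in C3.2. It was 144 and 136 TPM in C17.2 parental cells, 118 and 119 in C17.2 resistant cells, 136 and 134 in C3.2 parental cells and 111 and 92.8 in C3.2 resistant cells. The changes were -0.40 (SE 0.0652, adjusted p = 0.00625) in C17.2 and -0.47 (SE 0.0652, adjusted p = 0.0091) in C3.2, with a difference of 0.076 (95% interval -0.15 to 0.30). *HIST1H2BB* followed in C3.2, at 345 and 337 TPM in C17.2 parental cells, 177 and 195 in C17.2 resistant cells, 286 and 299 in C3.2 parental cells and 242 and 210.2 in C3.2 resistant cells. Resistant libraries were the lower in both clones, with changes of -1.03 (SE 0.0597, adjusted p = 0.000136) and -0.44 (SE 0.0597, adjusted p = 0.00893). Both calls in C3.2 were lost under 3 of 16 alternatives, and that of *HIST1H2BG* in C17.2 under 1. *HIST2H2BE* and *HIST2H2BF* of chromosome 1 fell in C17.2 by 0.83 and 0.46 on the log2 scale, and neither passed the threshold in C3.2. The C17.2 call was lost under 3 of 16 alternatives for *HIST2H2BE* and under 7 for *HIST2H2BF*.

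Of all members, *HIST1H3H*, an H3 gene at chr6:27810051-27811300 on the forward strand of GRCh38, had the largest fall in C17.2. It was 450.1 and 409.7 TPM in C17.2 parental cells, 161 and 137 in C17.2 resistant cells, 199 and 217 in C3.2 parental cells and 182 and 181 in C3.2 resistant cells. The C17.2 parental libraries lay above all others and its resistant ones below all others. The change was -1.69 (SE 0.0888, adjusted p = 9.4e-05) in C17.2, -0.26 (SE 0.0888, adjusted p = 0.119) in C3.2, and the difference between clones was -1.43 (SE 0.126, adjusted p = 0.00222). *HIST1H3I* had the largest fall of all members in C3.2. It was 1058 and 893 TPM in C17.2 parental cells, 487 and 473 in C17.2 resistant cells, 744 and 801 in C3.2 parental cells and 622 and 493 in C3.2 resistant cells, and both resistant groups lay below their parental group. Its changes were -1.18 (SE 0.0975, adjusted p = 0.000504) in C17.2 and -0.55 (SE 0.0975, adjusted p = 0.0201) in C3.2, the second lost under 11 of 16 alternatives (adjusted p from 0.0126 to 0.122).

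Other H3 genes fell less or did not pass the threshold. *HIST1H3B*, the most abundant, was 1560.3 and 1540.3 TPM in C17.2 parental cells, 1129 and 991 in C17.2 resistant cells, 1224 and 1374 in C3.2 parental cells and 1219 and 1419 in C3.2 resistant cells, with a change of -0.71 (SE 0.119, adjusted p = 0.00678) in C17.2. *HIST1H3F* fell there by 0.68 on the log2 scale. The C17.2 call was lost under 4 of 16 alternatives for *HIST1H3B* and under 2 for *HIST1H3F*. *HIST1H3C* was 879 and 835 TPM in C17.2 parental cells, 872 and 848 in C17.2 resistant cells, 814 and 918 in C3.2 parental cells and 786 and 952 in C3.2 resistant cells, and its groups overlapped on that scale. After scaling the C17.2 resistant libraries (778 and 734) lay below the parental ones (837 and 845). Its change was -0.16 (95% interval -0.43 to 0.12) there. *HIST1H3E* was the H3 gene that rose. It was 10.6 and 10.8 TPM in C17.2 parental cells, 22.1 and 19.1 in C17.2 resistant cells, 18.2 and 21.1 in C3.2 parental cells and 17.9 and 25.1 in C3.2 resistant cells, and the C17.2 parental libraries were the lowest of the 8 with and without scaling. The rise of 0.72 (SE 0.177, adjusted p = 0.0262) lost its call under 7 of 16 alternatives. Its annotated gene lies within longer overlapping transcripts on the same strand. *HIST2H3A* and *HIST2H3C* are near-identical copies with the same TPM in 7 of 8 libraries. Their sum was 256 and 184 TPM in C17.2 parental cells, 169 and 133 in C17.2 resistant cells, 260.0 and 269 in C3.2 parental cells and 256 and 174 in C3.2 resistant cells, which changed by -0.70 in C17.2 and by -0.39 in C3.2. *HIST2H3D* had a change of -0.50 (SE 0.142, adjusted p = 0.0445) in C17.2 that was lost under 11 of 16 alternatives.

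H4 genes went both ways in C17.2, with 7 of 13 called lower and 2 higher. Among all tested genes 13.9% were called lower and 13.4% higher. *HIST1H4L*, at chr6:27873148-27873534 on the reverse strand, had the largest rise. It was 187 and 166 TPM in C17.2 parental cells, 332 and 349 in C17.2 resistant cells, 249.6 and 268 in C3.2 parental cells and 325 and 301 in C3.2 resistant cells. The C17.2 parental libraries were the lowest of the 8 with and without scaling. The highest were the C17.2 resistant libraries on TPM as deposited, but after scaling those of C3.2 resistant cells (333 and 325, against 296 and 302 in C17.2 resistant cells). Its change was 0.79 (SE 0.0466, adjusted p = 0.000148) in C17.2, called under all 16 alternatives. In C3.2 it was 0.21 (SE 0.0466, adjusted p = 0.0391), lost under 12 of 16, and the difference between clones was 0.58 (SE 0.0659, adjusted p = 0.00496). *HIST1H4D* was 353 and 348 TPM in C17.2 parental cells, 561 and 578 in C17.2 resistant cells, 539 and 638 in C3.2 parental cells and 583 and 655 in C3.2 resistant cells. After scaling the C17.2 parental libraries (336 and 352) were the lowest, and the resistant ones (500.3 and 500.3) also lay below all 4 of C3.2 (598 to 707). The change was 0.54 (SE 0.0971, adjusted p = 0.00875) in C17.2, lost under 4 of 16 alternatives. In C3.2 it was 0.0082 (95% interval -0.23 to 0.24). The direction of *HIST1H4L*, *HIST1H3E* and *HIST1H4D* in C17.2 was upward under every alternative. These were the 3 members (4.84%) for which both C17.2 parental libraries lay below the other 6 in the scaled values. The share of all genes with that pattern is not given here. Low parental values are part of what makes these rises, so the pattern adds no separate support.

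*HIST1H4J*, the most abundant H4 gene, went the other way. It was 1805 and 1683 TPM in C17.2 parental cells, 1079 and 979 in C17.2 resistant cells, 1428 and 1565 in C3.2 parental cells and 1427 and 1329.7 in C3.2 resistant cells. Its change was -0.92 (SE 0.0716, adjusted p = 0.000411) in C17.2 and -0.18 (SE 0.0716, adjusted p = 0.158) in C3.2. It shares most of its sequence with *HIST1H4K*, listed at 0 in all libraries, so its value may include that copy. *HIST1H4F* fell in C17.2 by 0.82 on the log2 scale. *HIST1H4H* was 1015 and 974 TPM in C17.2 parental cells, 1076 and 1050.0 in C17.2 resistant cells, 1012 and 1157 in C3.2 parental cells and 1104 and 1273 in C3.2 resistant cells, with a change of -0.065 (95% interval -0.31 to 0.18) in C17.2 and 0.065 (95% interval -0.18 to 0.31) in C3.2. *HIST1H4C* ranged from 684.8 to 771.7 TPM over the 8 libraries, with a change of -0.22 (SE 0.0834, adjusted p = 0.101) in C17.2. The copies *HIST2H4A* and *HIST2H4B* summed to 659.8 and 619.8 TPM in C17.2 parental cells, 614 and 590.0 in C17.2 resistant cells, 681 and 691 in C3.2 parental cells and 729 and 774 in C3.2 resistant cells. *HIST2H4A* carried nearly all of this and had a change of -0.24 (SE 0.066, adjusted p = 0.0385) in C17.2, lost under 11 of 16 alternatives. *HIST4H4*, the member of chromosome 12, ranged from 15.5 to 21.5 TPM and had a change of -0.33 (SE 0.116, adjusted p = 0.0839) in C17.2.

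**Figure D3:**
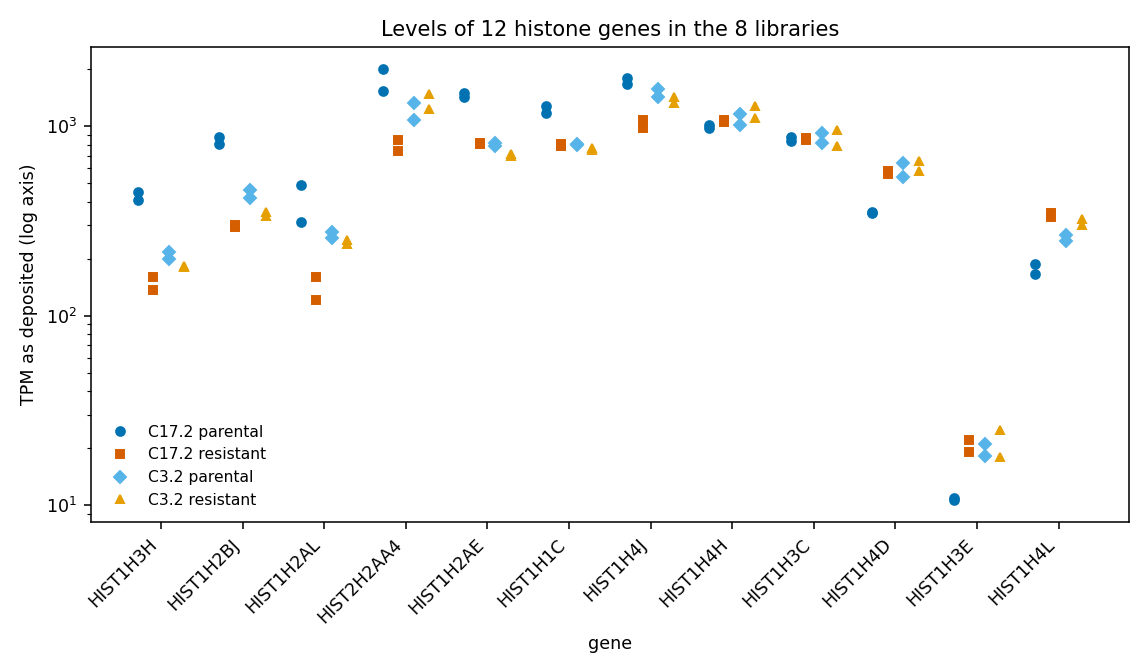
TPM as deposited (vertical log axis) of 12 histone genes (horizontal axis) in each of the 8 libraries, 1 symbol per library with groups in colors and shapes. The first 7 genes have their C17.2 parental libraries above those of the resistant cells, HIST1H4H and HIST1H3C overlap or lie close, and the last 3 have their lowest values in C17.2 parental cells.

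In C17.2 members fell both on chromosome 6 and elsewhere, where 13.9% of all tested genes were called lower and 13.4% higher. Of 50 tested HIST1 genes 39 fell and 3 rose, with a median of -0.73. Of the 12 others 9 fell and none rose, with a median of -0.58. In C3.2 all 11 calls were HIST1 genes, which make up 50 of the 62 tested members. Among all tested genes 6.90% were called lower in that clone and 4.46% higher. The HIST1 calls there were 3 lower and 0 higher on TPM as deposited. They were 4 and 1 with rescaling over protein-coding genes and 2 and 1 with quantile normalization. The 12 members outside HIST1 had a median of -0.13 in C3.2 (0.0062 with quantile normalization). Along chromosome 6 the members lie in 3 blocks more than 0.5 Mb apart. The first spans chr6:25723397-26285638 and had 30 tested members, of which 21 fell and 2 rose, with a median of -0.62. The second spans chr6:27125897-27147562, and 4 of its 5 members fell, with a median of -1.15. The third spans chr6:27807479-27893891, and 14 of its 15 tested members fell and 1 rose, with a median of -0.85. Differences between blocks or clusters were not tested.

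Neighbors within a block could go opposite ways. *HIST1H3I* at chr6:27871845-27872346 and *HIST1H4L* at chr6:27873148-27873534 are adjacent in the list of members and lie on the same strand. The first had a change of -1.18 (95% interval -1.41 to -0.94) and the second of 0.79 (95% interval 0.67 to 0.90) in C17.2. In the first block *HIST1H4D* rose between *HIST1H2BE*, with a change of -1.05, and *HIST1H3D*, with -0.95. *HIST1H3D* and *HIST1H2AD* share most of their sequence with a longer annotated gene that spans both, so their values are uncertain. *HIST1H2BE*, *HIST1H4D*, *HIST1H3D* and *HIST1H2AD* all lie within or opposite longer overlapping transcripts. The sources used here do not say that counting used strand, and 14 tested members overlap a gene of the opposite strand.

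**Figure D4:**
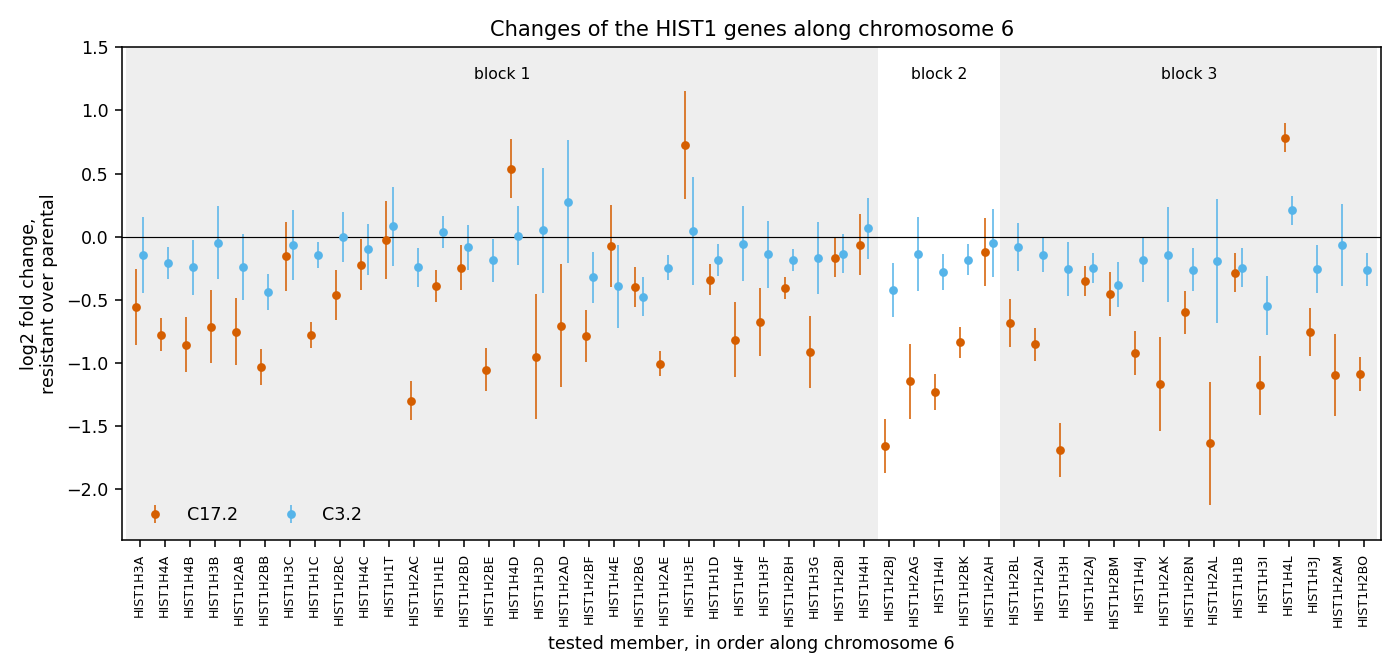
Log2 fold change of resistant over parental cells (vertical axis) for the 50 tested HIST1 genes in their order along chromosome 6 (horizontal axis), with 95% intervals, for C17.2 and C3.2. Shading separates the 3 blocks. C17.2 lies below C3.2 for most genes, and HIST1H4D, HIST1H3E and HIST1H4L rise above 0 among neighbors that fall.

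H2A and H2B genes often lie head to head, so that a short stretch of DNA serves both. Such divergent pairs numbered 12, with 170 to 251 bases between starts, and both genes were tested in 10. In C17.2 both genes fell in 9 of the 10. Taken singly, 86.7% of the tested H2A and 87.5% of the tested H2B genes fell there, against 13.9% of all tested genes. No share of pairs over all genes is given, so the count does not show a trait particular to the pairs. The sizes of the changes within a pair were not always alike. The 95% intervals of the 2 genes did not overlap in 5 pairs, which are named here for that reason. *HIST1H2AC* had a change of -1.30 (95% interval -1.45 to -1.15) and *HIST1H2BC* of -0.46 (95% interval -0.66 to -0.27). *HIST1H2AE* had -1.01 (95% interval -1.11 to -0.91) and *HIST1H2BG* -0.40 (95% interval -0.56 to -0.24). *HIST1H2AK* had -1.17 (95% interval -1.54 to -0.79) and *HIST1H2BN* -0.60 (95% interval -0.77 to -0.43). In these 3 pairs the H2A gene fell further. *HIST1H2BJ* had -1.66 (95% interval -1.87 to -1.45) and *HIST1H2AG* -1.15 (95% interval -1.44 to -0.85). *HIST1H2BK* had -0.84 (95% interval -0.96 to -0.72), whereas *HIST1H2AH* had -0.12 (95% interval -0.39 to 0.15) and did not pass the threshold. In these 2 pairs the H2B gene had the lower value. At the other end *HIST1H2AM* and *HIST1H2BO* had nearly equal changes of -1.10 and -1.09. Only 36.3% of the 100-base words of *HIST1H2AM* are found in no other gene. Most are shared with *HIST1H3J*, which overlaps it on the same strand, so its value is uncertain. The difference within a pair was not tested as a contrast.

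**Figure D5:**
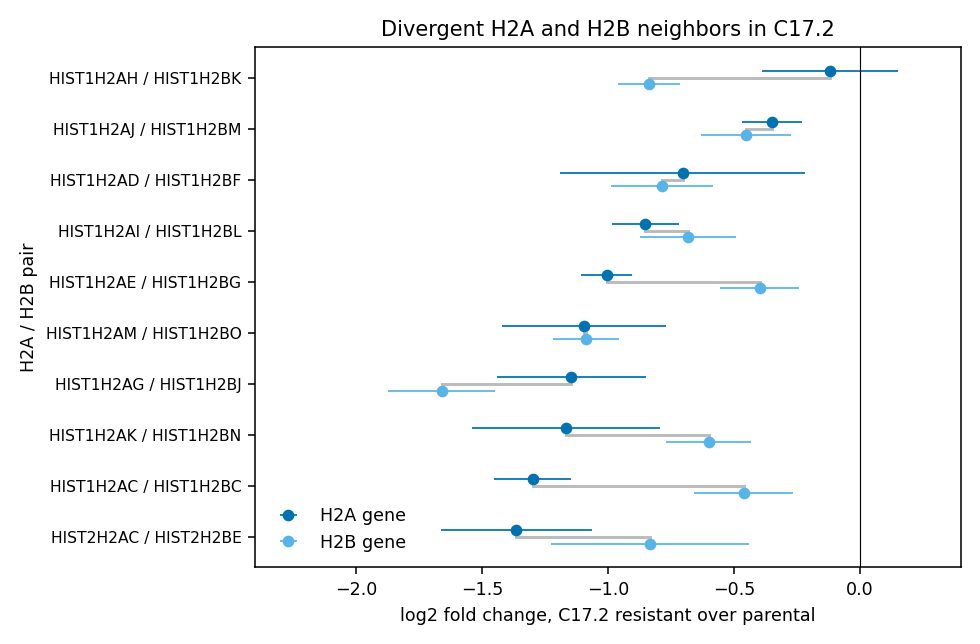
Log2 fold change of resistant over parental cells of C17.2 (horizontal axis) for the 10 divergent H2A and H2B pairs (vertical axis), with 95% intervals and a line joining each pair. All points lie below 0, and the intervals of the 2 genes do not overlap in 5 pairs.

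Members were also grouped by features the rule did not use, and differences between these groups were not tested. Over all tested members 77.4% fell in C17.2, where 13.9% of all tested genes were called lower and 13.4% higher. Of 23 tested members with the octamer in the promoter window, all of them H2A or H2B genes, 22 fell in C17.2 and none rose, with a median of -0.83. Of 34 without it 23 fell and 3 rose, with a median of -0.58. Within H2A and H2B genes 5 of 7 without the octamer fell. Of 49 tested members with 1 exon 39 fell, and of 13 with a further exon in some transcript 9 fell. Of 50 members with at least 50% of their 100-base words found in no other gene 38 fell and 3 rose, with a median of -0.68, and of the 12 others 10 fell. Of the 3 members printed above whose loop starts with TC, *HIST1H4L* and *HIST1H3E* rose and *HIST1H2BI* had a change of -0.17 (SE 0.0642, adjusted p = 0.104) in C17.2. This grouping was made after their values were seen.

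Factors of histone gene transcription and 3′ processing went both ways. In C17.2, 2 of 23 such factors fell and 4 rose (26.1% called, against 27.3% of all tested genes), around a median of 0.0070, where 1 fell and 7 rose on TPM as deposited. *SLBP*, which binds the stem-loop, had a change of 0.18 (SE 0.0673, adjusted p = 0.0926), and *NPAT* of 0.16 (SE 0.0742, adjusted p = 0.162). *NCBP2*, a subunit of the nuclear cap-binding complex, rose by 0.72 (SE 0.0445, adjusted p = 0.000172). *SRRT*, which links the cap to processing, rose by 0.38 (SE 0.0516, adjusted p = 0.00319). *LSM11* and *ZNF473*, both parts of the U7-dependent machinery, had changes of 0.29 (SE 0.0753, adjusted p = 0.0332) and 0.37 (SE 0.0926, adjusted p = 0.0284). *YBX3* had -0.40 (SE 0.0491, adjusted p = 0.00208), and *E2F1*, a driver of S-phase entry, had -0.21 (SE 0.0516, adjusted p = 0.0253). In C3.2 *E2F1* fell and *NCBP2* rose. The U7 RNA gene on the list, *RNU7-1*, was listed at 0 in all libraries.

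Of 40 replication genes 7 fell and 11 rose in C17.2, where 13.9% of all genes were called lower and 13.4% higher. The counts were 3 and 15 on TPM as deposited, 4 and 14 with rescaling over protein-coding genes and 6 and 11 with quantile normalization. The median was -0.037, and 0.12, 0.017 and -0.020 under those scalings. The licensing factor gene *CDT1* had a change of -1.22 (SE 0.0711, adjusted p = 0.000141), whereas the flap endonuclease gene *FEN1* had 0.49 (SE 0.0424, adjusted p = 0.000577) and the sliding clamp gene *PCNA* 0.069 (SE 0.0511, adjusted p = 0.368). These 3 were picked for naming after their values were seen. In C3.2 7 replication genes (17.5%) fell, where 6.90% of all genes were called lower, and none rose, and the median was -0.092. In that clone the other 3 scalings gave 1 or 2 that fell, 0 to 2 that rose and a median that turned to 0.0091 with rescaling over protein-coding genes. The ratio of summed histone TPM to the summed TPM of these 40 genes was 14.4 and 14.2 in C17.2 parental cells and 9.49 and 8.79 in resistant cells. It was 12.5 and 13.1 in C3.2 parental cells and 12.1 and 13.2 in resistant cells, which overlapped. This ratio needs no scaling between libraries.

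Replacement variants are histones made also outside S phase, mostly from polyadenylated messages. Of the 8 tested 1 fell and 1 rose in C17.2 (25% called, against 27.3% of all tested genes). The linker histone gene *H1FX* had a change of -1.14 (SE 0.202, adjusted p = 0.00835), and *H2AFV*, which encodes an H2A.Z form, had 0.45 (SE 0.0396, adjusted p = 0.00062). The number called higher was 3 to 5 under the other 3 scalings. Of 11 tested rows of other RNAs without a poly(A) tail 2 (18.2%) were called lower in C17.2, against 13.9% of all tested genes. They were *RN7SL1* with -1.36 (SE 0.273, adjusted p = 0.013) and *RPPH1* with -0.37 (SE 0.0892, adjusted p = 0.0251). With rescaling over protein-coding genes 2 fell and 1 rose, with quantile normalization 2 and 2, and on TPM as deposited 1 and 2. In C3.2 none of the 11 was called by limma. Together these RNAs made up 317452 and 363841 TPM in C17.2 parental cells and 292041 and 271126 TPM in resistant cells, against 332683 to 394761 TPM in C3.2. Their part in the histone result was not tested.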

How the data were processed

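RNA-seq of 8 libraries was analyzed from the table of TPM that the authors deposited. Per the labels and methods, total RNA was depleted of ribosomal RNA, reads were trimmed with Trim Galore 0.6.3, aligned with STAR 2.7.9a to GRCh38 and quantified with RSEM 1.3.1 on Gencode release 31. The methods describe paired-end and the labels single-end reads. TPM keep no depth.

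Groups came from the labels. TPM were divided by a factor per library (ratios trimmed by 30%, means by 5%), log2(value + 1) was fitted over 4 groups with limma 3.58.1 (R 4.3.3) with a mean-variance trend, and p-values were Benjamini-Hochberg adjusted over 15614 genes. The fit was tested on simulated data. Genes named were the 4 most abundant members of each type, the 3 largest rises and falls past the threshold in each contrast, all tested members outside HIST1, testis members and those nearest the filter, with others marked as chosen later. Members and lists were chosen with earlier results of these data known. Coordinates and stem-loops came from Gencode release 44 (GRCh38), promoters from RefSeq (GRCh38.p14).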

Additional observations from a re-analysis of the deposited data

Results flagged for a closer look

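No group had the 4 libraries that a search for single outlying libraries needs. The change in C17.2 differed from that in C3.2 by the test of the difference itself (limma, adjusted over all genes tested) for these members named by rule, each given as the log2 change in C17.2 minus that in C3.2. Among H2A genes it was -1.45 for *HIST1H2AL*, -1.42 for *HIST2H2AA4*, -1.02 for *HIST2H2AC*, -0.76 for *HIST1H2AE*, -0.71 for *HIST1H2AI* and -0.67 for *HIST2H2AB*. Among H2B genes it was -1.24 for *HIST1H2BJ*, -0.87 for *HIST1H2BE*, -0.66 for *HIST1H2BK* and -0.59 for *HIST1H2BB*. H3 genes with such a difference were *HIST1H3H* at -1.43 and *HIST1H3I* at -0.63. H4 genes were *HIST1H4F* at -0.76, *HIST1H4J* at -0.74 and *HIST1H4L*, the one positive value, at 0.58. H1 genes were *HIST1H1C* at -0.63 and *HIST1H1E* at -0.43. Of 15 alternatives, the call was lost under 10 for *HIST1H4F*, 9 for *HIST1H3I* and *HIST2H2AB*, 8 for *HIST1H2AL*, 6 for *HIST2H2AA4* and *HIST2H2AC*, 5 for *HIST1H1E* and *HIST1H2BB* and 3 for *HIST1H4J*. It was lost under none for the other 8.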

How the results depend on the processing

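No paired analysis was possible because the labels give the libraries no replicate numbers and the numbers used here follow the order of deposit. Depth is unknown, so counting error limits low members by an amount that cannot be given. On TPM as deposited, with rescaling over other protein-coding genes and with quantile normalization, the median of the members was -0.54, -0.64 and -0.58 in C17.2, -0.10, -0.065 and -0.011 in C3.2, and -0.43, -0.57 and -0.58 for the difference. In C3.2 these settings called 3, 4 and 2 members lower, and 4 were called with no filter, 5 with no trend and 0 with each clone fitted alone. None was called higher there (0) on TPM as deposited, with no filter, with no trend or with each clone alone. The difference was called negative for 15 members with no filter and positive for 2 on TPM as deposited. The log2 ratio of summed TPM was -0.52 in C17.2 and -0.064 in C3.2 as deposited, and -0.019 in C3.2 relative to replication genes. That setting also turned summed H2A (0.0093) and H4 (0.045) of C3.2 positive, and quantile normalization turned *HIST2H4A* in C17.2 to 0.016. The cause was not tested.

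Leaving out 1 library gave 35 to 50 members lower, 1 to 3 higher and a median of -0.81 to -0.60 in C17.2. In C3.2 it gave 0 to 9 lower (0 without either parental library of that clone, 4 without either C17.2 parental library), 0 to 1 higher and a median of -0.21 to -0.12. For the difference it gave 11 to 30 negative, 1 to 3 positive and a median of -0.57 to -0.43. The library left alone in its group was taken to vary like the other groups.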

Other observations

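The contrast of a clone's 2 states does not show which state stood apart, so the levels of the members were also set side by side across clones, as a description, since clone and set of libraries cannot be told apart. The median log2 ratio of scaled TPM of C17.2 over C3.2 was 0.094 in parental cells, with 38 of 61 members higher in C17.2. In resistant cells it was -0.37, with 56 of 61 members lower in C17.2. For 8 members C17.2 parental cells lay above the other 6 libraries while its resistant cells did not lie below them, and for 21 members the reverse held. No share over all genes is given here for these counts, so they do not show a trait particular to the histone genes.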
